A study of Mus musculus with 36 samples.

Results

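The hairpins sh1 and sh10, both labelled as depleting Zrsr1, were compared with each other in ex vivo cultures of mouse Lin-Kit+ bone marrow cells. The members are the libraries whose titles carry one or the other hairpin, 4 with sh1 and 4 with sh10, 8 of the 36 libraries of the series. Each hairpin was used in Zrsr2 KO and in WT cells (C57BL/6 background) in each of 2 experiments, so every genotype and experiment forms a block with 1 sh1, 1 sh10 and 1 control hairpin library. The 4 control libraries, with the hairpin labelled Con in the same 4 blocks, served to place a difference between the hairpins as a change with sh1 or with sh10. Lin-Kit+ cells lack the surface markers of mature blood lineages and carry the receptor Kit. The KO carries the Zrsr2 deletion in all its 6 libraries used here, the controls included. The labels do not say whether the experiments used separate mice, so the p-values speak only of spread among these libraries, and that may be technical. RNA was selected by its poly(A) tail and the deposited values are read counts per intron: reads spliced across it, and reads that cross its 5′ or its 3′ exon boundary unspliced.

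A short hairpin RNA is cut by the cell into a small RNA that guides a silencing complex to transcripts with a matching stretch, and 2 hairpins against 1 gene share the intended target but not their sequence. Effects seen with both are therefore set apart from effects seen with one of them. Zrsr1 and Zrsr2 encode related zinc finger proteins, and ZRSR2 takes part in removing U12-type introns, the small intron class handled by the minor spliceosome, where it reads their 3′ ends. The marrow progenitors in such a culture can mature into red cells, platelet-forming megakaryocytes, mast cells, neutrophils and macrophages, each with textbook marker genes.

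Spliced reads ran from 33822137 to 39350571 in the sh1 libraries, from 33585926 to 39507615 in the sh10 libraries and from 30481450 to 43345548 in the controls. Introns with at least 20 unspliced reads in a library were checked for such reads at only 1 of their ends. In every group the share of these was larger in the experiment 2 libraries (24.6% to 31.0%) than in the experiment 1 libraries (7.86% to 12.8%). The tests of genes and introns below were made within experiments, save for the fits said to be without the block. Statements that libraries do not overlap, and the permutation test of the exon-intron share, go across experiments. Zrsr2 was at 0.0887 to 1.52 CPM (spliced counts scaled to 1000000 per library) in KO libraries and at 19.2 to 25.9 CPM in WT libraries. Its difference between the hairpins was -0.86 (SE 0.70, adjusted p = 0.519) on the log2 scale. That value pools WT libraries with KO libraries near the floor. It ran from -1.25 to -0.24 as 1 library was left out, and was -0.24 without the KO sh10 library of experiment 1. Zrsr1 lies inside an intron of Commd1 and has no listed intron of its own, so its knockdown has no value here. Commd1 itself differed by -0.29 (SE 0.11, adjusted p = 0.118). Kit was at 197, 374, 160.4 and 379 CPM with sh1, at 195, 224, 133 and 143 CPM with sh10 and at 172, 399, 174 and 469 CPM with the control, where the 4 values are, as throughout, KO experiment 1, KO experiment 2, WT experiment 1 and WT experiment 2. Cd3e, a subunit of the T cell receptor complex, stayed between 0 and 0.591 CPM over the 12 libraries. The list of B, T and NK cell genes summed to 403, 519, 361 and 454 CPM with sh1, to 414, 430.3, 209.7 and 260.4 CPM with sh10 and to 475, 987, 524 and 873 CPM with the control.

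Some libraries stood apart at single loci, the same way in both experiments. Ifi202b, an interferon-inducible gene (chr1:173962568-173982744, minus strand, mm10), was at 149, 255, 3.41 and 5.71 CPM with sh1, at 153, 398, 232 and 322 CPM with sh10 and at 282, 243, 202 and 247 CPM with the control. The WT sh1 libraries alone were low. The adjacent Gm18445 was at 49.3, 84.8, 1.17 and 1.9 CPM with sh1 and at 50.8, 133, 77.3 and 107 CPM with sh10, low in the same libraries. AI662270 was at 55.3, 37.9, 45.7 and 45.6 CPM with sh1 and at 43.5, 31.7, 231 and 130.1 CPM with sh10, and Gm11427, which overlaps it on chromosome 11, was at 54.2, 37, 45.3 and 40.2 CPM with sh1 and at 46.7, 35.3, 240.1 and 129.7 CPM with sh10. Here the WT sh10 libraries alone were high. The cause was not tested, and these loci are left out of the gene groups below.

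Of 17828 genes tested on spliced reads summed over their introns (edgeR's quasi-likelihood test with a term for each block, Benjamini-Hochberg adjustment over all 17828), 2069 differed between sh1 and sh10 at an adjusted p under 0.05, which is 11.6%. They were 1097 genes higher with sh1 (6.15%) and 972 lower (5.45%), and the median of all genes tested was -0.02 on the log2 scale. At least 1 log2 unit separated the hairpins for 474 of the called genes (243 higher, 231 lower), and at least 2 units for 110 (51 higher, 59 lower). Against the control, 2804 genes were called with sh1 (15.7%, with 8.36% higher and 7.36% lower). With sh10 3589 were called (20.1%, with 10.2% higher and 9.96% lower). These shares are the background for the list counts against the control below. Those comparisons share the 4 control libraries, so calls made with both are no independent evidence, and the genes are sorted by the test of the difference itself. A total of 519 genes differed between the hairpins with a called change in that direction with sh1 and none called with sh10 (295 higher and 224 lower than the control with sh1). Another 857 did so with a change with sh10 alone (395 higher and 462 lower than the control with sh10). Only 77 genes were called in opposite directions against the control, and 207 were called in the same direction with a different size. A further 409 differed between the hairpins with no call that places them. For the mean of both hairpins over the control 3454 genes were called (19.4%, with 9.69% higher and 9.69% lower). Genes are called shared below where both hairpins were called on the same side of the control and not between them. This sorting gave 1413 genes (748 higher, 665 lower), a count that describes the sorting only, since both calls use the same controls, and for 1334 of these the 95% interval of the difference lay within 1 log2 unit. The count of 2069 depended on the block, since 133 genes were called without it (80 higher, 53 lower), and 86 of the 113 named genes with a call then lost it. It was 1271 without the WT sh10 library of experiment 1, 1277 without the WT sh1 library of experiment 1 and up to 2026 without another single library.

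**Figure D1:**
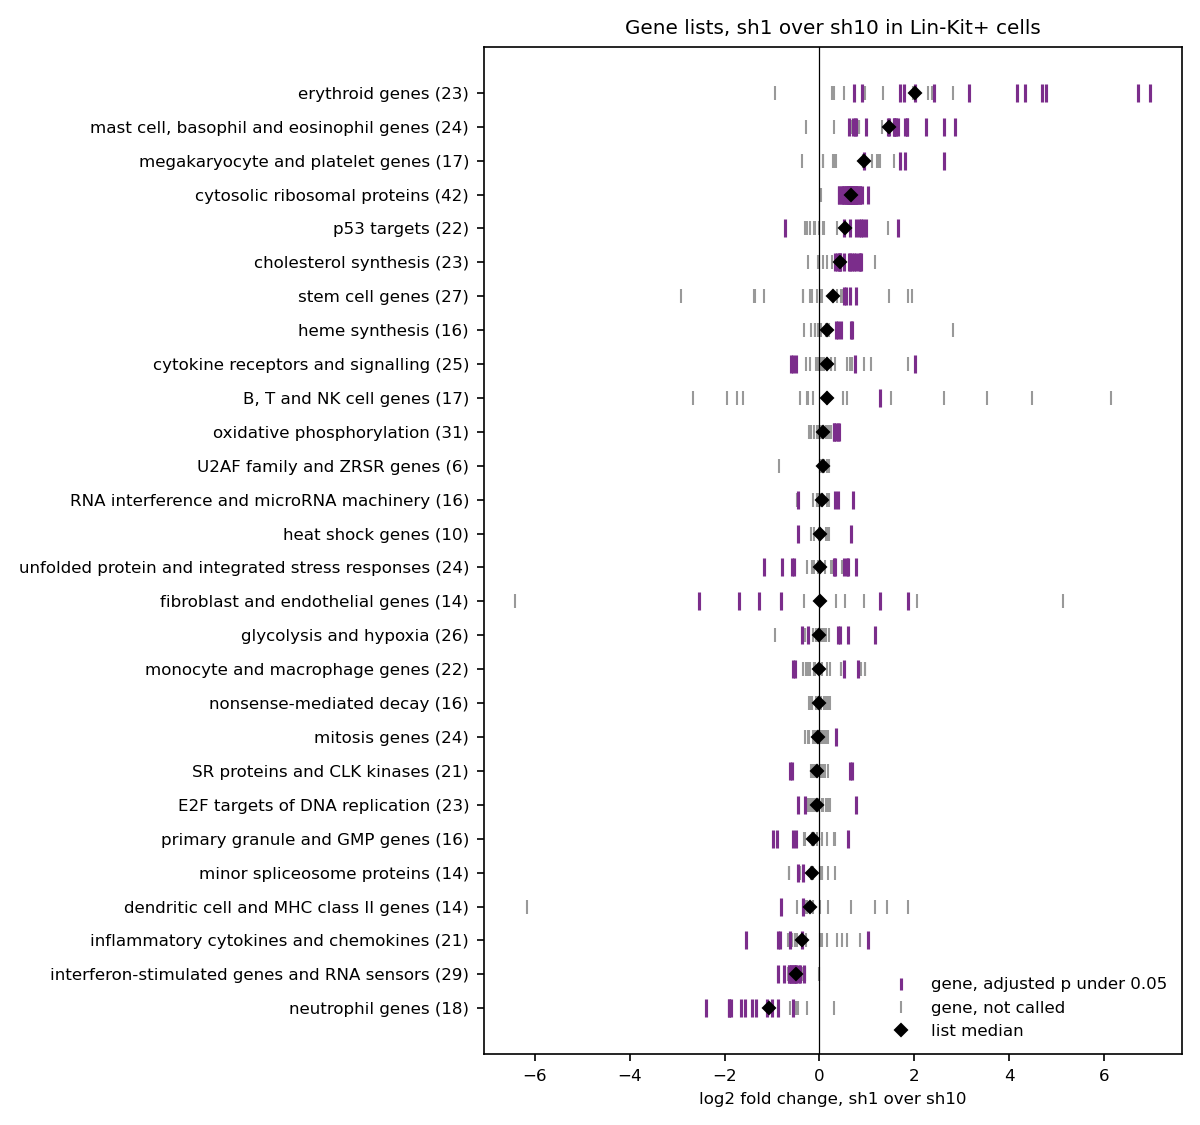
Log2 fold change, sh1 over sh10 (x axis), for each tested gene of 28 gene lists (rows, number tested in brackets); purple ticks are genes with an adjusted p under 0.05, grey ticks are genes not called, and diamonds are list medians. Erythroid genes have the highest median (2.02) and neutrophil genes the lowest (-1.06), while mitosis genes centre near 0 (-0.03).

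Erythroid genes were the list with the highest median. Of 23 tested, 13 were called higher with sh1 than with sh10 and none lower, with a median of 2.02 against -0.02 over all genes. The median was 1.67 in KO and 1.88 in WT blocks. The list summed to 912, 411, 702 and 397 CPM with sh1, to 324, 118, 255 and 115 CPM with sh10 and to 478, 291, 504 and 355 CPM with the control. Within each block the sh1 library was above and the sh10 library below the control. Against the control, 10 of the 23 were called higher and none lower with sh1 (8.36% of all genes were called higher), and none higher and 6 lower with sh10 (9.96% of all genes were called lower). In bulk samples fewer cells of a type and less RNA per cell cannot be told apart.

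The promoters of 2 adult globin genes are shown because the 4 globin genes had the largest differences among the named genes, and these lie in the alpha and the beta cluster. The capitals mark CCACCC, the letters of the CACCC box that Krüppel-like factors bind, as well as the GATA factor letters GATAA and the box named CCAAT, on either strand. These letters were chosen after the promoters were read. Each run is the 250 bases before the RefSeq start (GRCm38.p6), for Hba-a1 at chr11:32283422-32283671 on the plus strand and for Hbb-bt at chr7:103813924-103814173 on the minus strand.
Hba-a1: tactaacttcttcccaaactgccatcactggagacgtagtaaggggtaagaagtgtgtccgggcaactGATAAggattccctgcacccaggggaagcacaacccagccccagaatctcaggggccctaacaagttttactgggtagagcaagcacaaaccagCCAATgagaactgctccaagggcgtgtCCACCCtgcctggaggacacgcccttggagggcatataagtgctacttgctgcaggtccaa
Hbb-bt: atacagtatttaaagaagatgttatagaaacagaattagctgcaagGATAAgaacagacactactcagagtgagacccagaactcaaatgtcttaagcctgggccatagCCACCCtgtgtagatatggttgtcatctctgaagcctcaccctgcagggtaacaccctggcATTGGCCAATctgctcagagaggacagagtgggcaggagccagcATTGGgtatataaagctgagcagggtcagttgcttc
GATAA was in the promoter of 4 of 4 globin genes and of 12 of 17 erythroid genes with a listed promoter, against 23.0% of 27025 promoters. CCACCC was in 3 of 4, in 12 of 17 and in 27.7% of all, and CCAAT in 4 of 4, in 9 of 17 and in 34.5% of all. A match describes these letters and does not show that a factor binds.

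Hba-a1, an alpha globin, was at 90.6, 41.9, 43.1 and 46.4 CPM with sh1, at 1.28, 0.278, 0.57 and 0.177 CPM with sh10 and at 19.2, 1.15, 12.5 and 3.22 CPM with the control. All sh1 libraries were above all sh10 libraries, as for 756 of the genes tested (4.24%), and for 828 the reverse held (4.64%). The difference was 6.97 (SE 0.58, adjusted p = 0.00018), made of a called rise with sh1 (3.25) and a called fall with sh10 (-3.72). Hbb-bt, a beta globin, was at 178, 27.9, 123 and 24 CPM with sh1 and at 13.8, 0.5, 5.38 and 0.456 CPM with sh10, again with no overlap, and differed by 4.69 (SE 0.33, adjusted p = 8.99e-05). Hba-a2 (6.72) and Hbb-bs (4.78) were also called, and since the members of each pair are near-identical copies, how reads were split between them is uncertain. Kel, the Kell blood group glycoprotein (3.14), and Epor, the erythropoietin receptor (2.02), were called higher with sh1 as well. Gata1, the transcription factor of red cell and megakaryocyte maturation, was at 43.3, 46.3, 53.4 and 46.7 CPM with sh1 and at 35.6, 31.7, 23.2 and 25.9 CPM with sh10, a smaller difference of 0.73 (SE 0.15, adjusted p = 0.0127) whose call was lost without the WT sh10 library of experiment 1. Of 16 genes of heme synthesis, 5 were called higher and none lower (median 0.16), and 3 without the experiment 2 library of KO sh1 or KO sh10. They were led by Alad (0.68) and Cpox (0.67), which make heme precursors. Among the 12 genes with the largest higher values, Adgb, encoding androglobin (3.08), is outside these lists.

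Genes of mast cells, basophils and eosinophils were also higher with sh1: 18 of 24 were called higher and none lower, with a median of 1.46 (0.91 in KO, 1.91 in WT blocks). Siglecf, a lectin on eosinophils, was at 56.3, 58.9, 49.3 and 62.2 CPM with sh1 and at 16.1, 21.5, 17.1 and 31.9 CPM with sh10, a difference of 1.47 (SE 0.16, adjusted p = 0.00047). Its groups did not overlap. Alox15, a lipoxygenase, was at 229, 460.4, 252 and 369 CPM with sh1, at 90, 152, 60.1 and 129 CPM with sh10 and at 11.9, 35, 10.5 and 33.2 CPM with the control. Both hairpins were above the control in every block, with sh1 higher than sh10 by 1.66 (SE 0.17, adjusted p = 0.000387). Mcpt2, a mast cell protease, was at 11.1, 1022, 19.1 and 773 CPM with sh1 and at 5.51, 95.5, 0.978 and 37.8 CPM with sh10. Experiment 2 was far above experiment 1 with either hairpin, so the groups overlapped, while within each block sh1 was higher (log2 difference 3.21, SE 0.51, adjusted p = 0.0032). Mcpt4 (2.87), another mast cell protease, and Ear2 (1.81), a ribonuclease of eosinophils, were called too, and both belong to gene families with close copies. Outside the list, Cd101, a surface glycoprotein (2.98), and Mylk, myosin light chain kinase (2.71), were among the 12 genes with the largest higher values. The count of 18 fell to 11 without the WT sh10 library of experiment 1. Against the control, 11 of the 24 list members were called higher and none lower with sh1, and 3 higher and 6 lower with sh10.

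Of 17 megakaryocyte and platelet genes, 4 were called higher with sh1 and none lower (median 0.94). The count of 4 was 7 without the KO sh10 library of experiment 1. The list summed to 4071, 3677, 3661 and 3498 CPM with sh1, to 4039, 2788, 4420.0 and 3127 CPM with sh10 and to 3391, 3128, 3235 and 3461 CPM with the control. The sum was higher with sh1 in both experiment 2 blocks, lower in WT experiment 1 and close in KO experiment 1. Against the control, 3 members were called higher and none lower with sh1, and 2 higher and 5 lower with sh10. Of all genes 8.36% were called higher with sh1, and 10.2% higher and 9.96% lower with sh10. Itgb3, integrin beta 3 of the platelet fibrinogen receptor, was at 95.4, 113, 95.3 and 115 CPM with sh1, at 41.7, 32.1, 28.6 and 20.6 CPM with sh10 and at 56.9, 61.3, 61 and 64.9 CPM with the control. Every sh1 library lay above and every sh10 library below the controls, and the difference was 1.80 (SE 0.17, adjusted p = 0.000278). The platelet chemokines Ppbp (2.63) and Pf4 (1.70) and the integrin Itga2b (0.94) were the other called members.

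**Figure D2:**
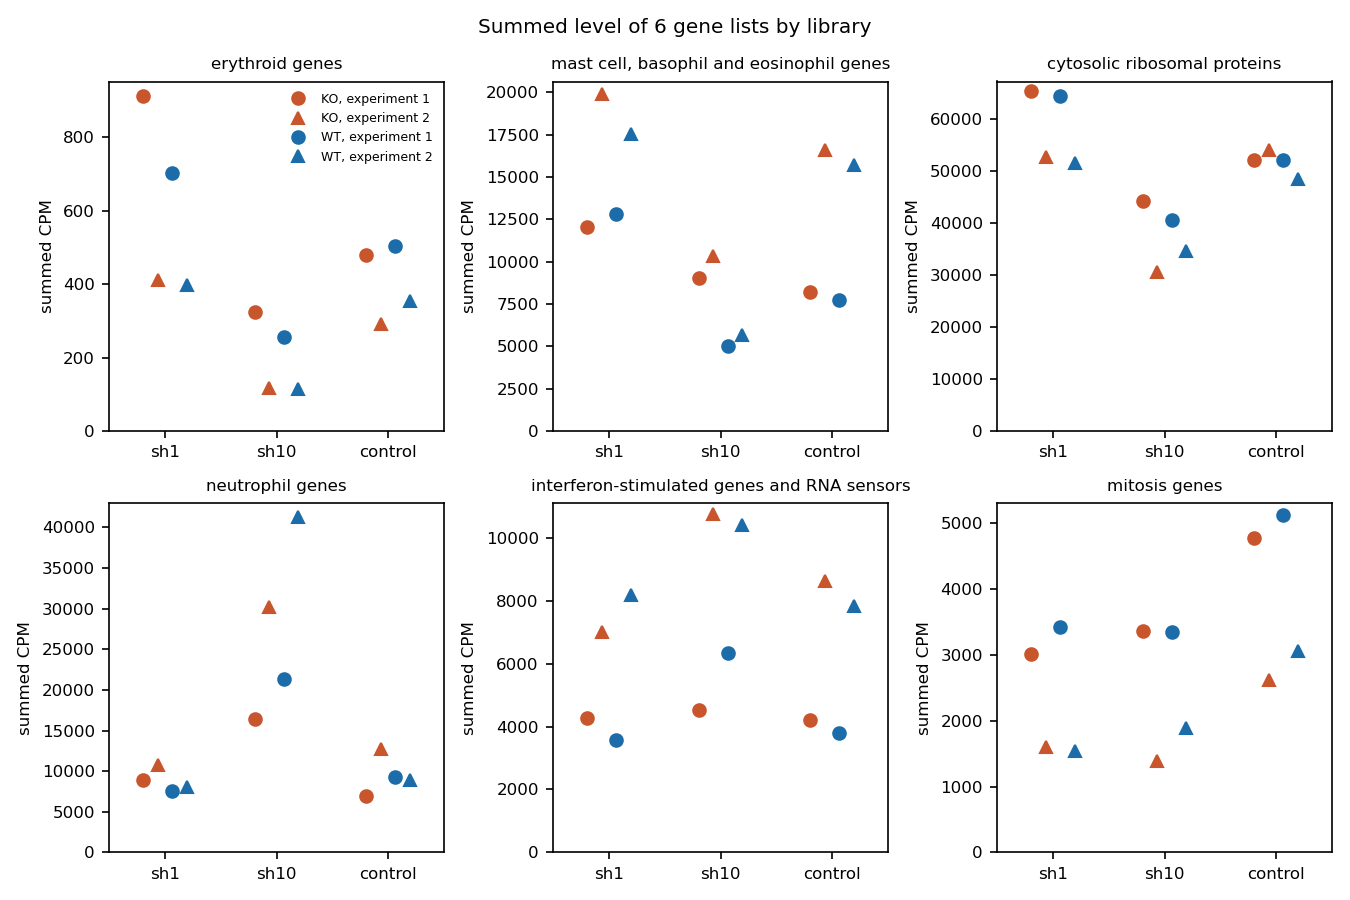
Summed CPM (y axis, linear from 0) of 6 gene lists in each library with sh1, sh10 or the control hairpin (x axis); colour gives the genotype and shape the experiment. Neutrophil genes sum to 7546 to 10762 CPM with sh1 and to 16359 to 41276 CPM with sh10, while mitosis genes are below the controls with both hairpins within each block.

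Cytosolic ribosomal protein genes moved almost as a whole: 41 of 42 were called higher with sh1 than with sh10 and none lower, with a median of 0.67 (0.65 in KO, 0.68 in WT blocks). They summed to 65489.5, 52772, 64474 and 51638 CPM with sh1, to 44313, 30533, 40585 and 34712 CPM with sh10 and to 52191, 54069, 52123 and 48562 CPM with the control. All sh1 libraries were above all sh10 libraries. Against the control, 16 were called higher and 1 lower with sh1, and none higher and 33 lower with sh10. Rplp1, of the ribosomal stalk, was at 2023, 1323, 1957 and 1269 CPM with sh1 and at 1061, 647, 978 and 603 CPM with sh10, a difference of 1.03 (SE 0.07, adjusted p = 8.99e-05). Rps19 (0.85), Rps2 (0.83) and Rpl10 (0.69), members of the small and the large subunit, were the others with the smallest p-values of the list. Without the block 2 of the 42 were called. Eif4b, a cofactor of the translation initiation helicase, was at 344, 316, 337 and 323 CPM with sh1, at 152, 108, 102 and 80.4 CPM with sh10 and at 385, 309.9, 374 and 363 CPM with the control. Only the sh10 libraries were apart from the controls, and the hairpins differed by 1.62 (SE 0.13, adjusted p = 0.000163). Eif4ebp2, which binds the cap-binding factor eIF4E, differed by 1.37 (SE 0.10, adjusted p = 8.99e-05). Both were singled out after their values were seen.

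In cholesterol synthesis, 14 of 23 genes were called higher with sh1 and none lower (median 0.43). Hmgcs1, which makes HMG-CoA ahead of the rate-limiting reductase, was at 119, 102, 122 and 99.3 CPM with sh1 and at 80.5, 65.1, 68.3 and 58 CPM with sh10, a difference of 0.72 (SE 0.09, adjusted p = 0.00109). Cyp51 (0.86), Idi1 (0.77) and Sqle (0.68), enzymes further down the pathway, were called alongside. Of 22 p53 targets, 8 were called higher and 1, Fas, lower (-0.74), with a median of 0.53. Perp, of cell junctions (1.66), Trp53inp1 (0.99), Ccng1, cyclin G1 (0.89), and the pro-apoptotic Bax (0.83) had the smallest p-values. The count of 8 was 5 without the WT sh10 library of experiment 1. Against the control 6 of the p53 targets were called higher and none lower with sh1, and 1 higher and 3 lower with sh10. In glycolysis and hypoxia, 4 of 26 genes were called higher and 2 lower (median -0.01). Hk2, hexokinase 2, was at 167, 144, 173 and 157 CPM with sh1, at 83, 68.1, 75.4 and 60.2 CPM with sh10 and at 145, 121, 139 and 155 CPM with the control. Its sh10 values were all below both other groups, and the hairpins differed by 1.18 (SE 0.10, adjusted p = 0.000163).

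Neutrophil genes went the other way. Of 18 tested, none were called higher and 12 lower with sh1 than with sh10, with a median of -1.06 (-0.90 in KO, -1.20 in WT blocks). They summed to 8892, 10762, 7546 and 8078 CPM with sh1, to 16359, 30232, 21357 and 41276 CPM with sh10 and to 6959.8, 12691, 9299.8 and 8938 CPM with the control. The sh10 libraries alone were high in every block. Against the control, 5 were called higher and 2 lower with sh1, and 15 higher and none lower with sh10 (10.2% of all genes were called higher). Cd177, a neutrophil surface glycoprotein, was at 49.4, 62.8, 34.4 and 45.8 CPM with sh1 and at 141, 304, 200.4 and 454 CPM with sh10, with no overlap and a difference of -2.40 (SE 0.25, adjusted p = 0.000387). S100a8, a calprotectin subunit (-1.64), Chil3, a chitinase-like lectin (-1.86), and Itgb2l, an integrin (-1.91), were called alike. Ltf, encoding the granule protein lactoferrin, differed by -1.90 (SE 0.28, adjusted p = 0.00205).

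The Ltf promoter is shown beside the globin ones because Ltf had the smallest p among the 8 neutrophil genes whose promoter holds TTGCNNAA. Its match was therefore fixed by the choice. Ltf was lower with sh1 than with sh10. Capitals mark TTGCNNAA on either strand, and the run is the 250 bases before the RefSeq start (GRCm38.p6) at chr9:111019042-111019291, plus strand.
Ltf: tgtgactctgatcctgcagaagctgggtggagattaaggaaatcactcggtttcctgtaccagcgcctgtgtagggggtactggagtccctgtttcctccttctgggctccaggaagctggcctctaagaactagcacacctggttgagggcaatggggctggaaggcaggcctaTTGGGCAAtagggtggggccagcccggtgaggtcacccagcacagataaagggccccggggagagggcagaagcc
The Ltf run also holds the letters marked in the globin promoters, in small letters or overlapping the capitals: GATAA at 1 place, CCAAT at 1 and CCACCC at 2, on either strand. Among the 16 neutrophil promoters GATAA was in 3, CCAAT in 7 and CCACCC in 7. TTGCNNAA was in neither globin run shown, in 8 of 16 neutrophil promoters (Ltf, S100a9, Mmp8, Ngp, Lcn2, Fcnb, Ly6g and Retnlg), in 1 of 17 erythroid promoters and in 9.55% of 27025 promoters. Of those 8 genes, 5 were called lower with sh1 and 3, Fcnb, Ly6g and Retnlg, were not called. In the whole neutrophil list 12 of 18 were called lower, so the count of 5 is not read as a result about TTGCNNAA.

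The genes with the largest lower values with sh1 included a cluster of stefins, inhibitors of cysteine proteases. Stfa1 was at 22.2, 18.3, 23.7 and 17.7 CPM with sh1 and at 163, 105, 389 and 265 CPM with sh10, a difference of -3.40 (SE 0.38, adjusted p = 0.000598). Stfa2 (-3.06), Stfa3 (-2.62) and Stfa2l1 (-2.49) were called too, and as close copies their reads cannot be assigned with certainty. Aox1, aldehyde oxidase 1, was at 0.68, 0.756, 0.712 and 0.793 CPM with sh1, at 9.47, 7.38, 11.6 and 8.25 CPM with sh10 and at 1.15, 0.773, 1.08 and 0.739 CPM with the control. Only sh10 was apart from the control, and the hairpins differed by -3.59 (SE 0.29, adjusted p = 0.000163). Chil4, a chitinase-like lectin with a near copy in Chil3 (-3.05), Crispld2, a secreted protein (-3.19), Tnfsf13b, the B cell survival factor BAFF (-2.69), Adgrb1, a phagocytic receptor (-3.27), Klk1b11, of the kallikrein family (-4.25), and Col5a1, a collagen V chain (-2.55), were also called. Afp, alpha-fetoprotein, had a large value near the threshold (log2 difference -3.68, SE 1.06, adjusted p = 0.0492), and its call was lost in 10 of 12 fits that left out 1 library. The call of Col5a1 was lost without either WT sh1 library.

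**Figure D3:**
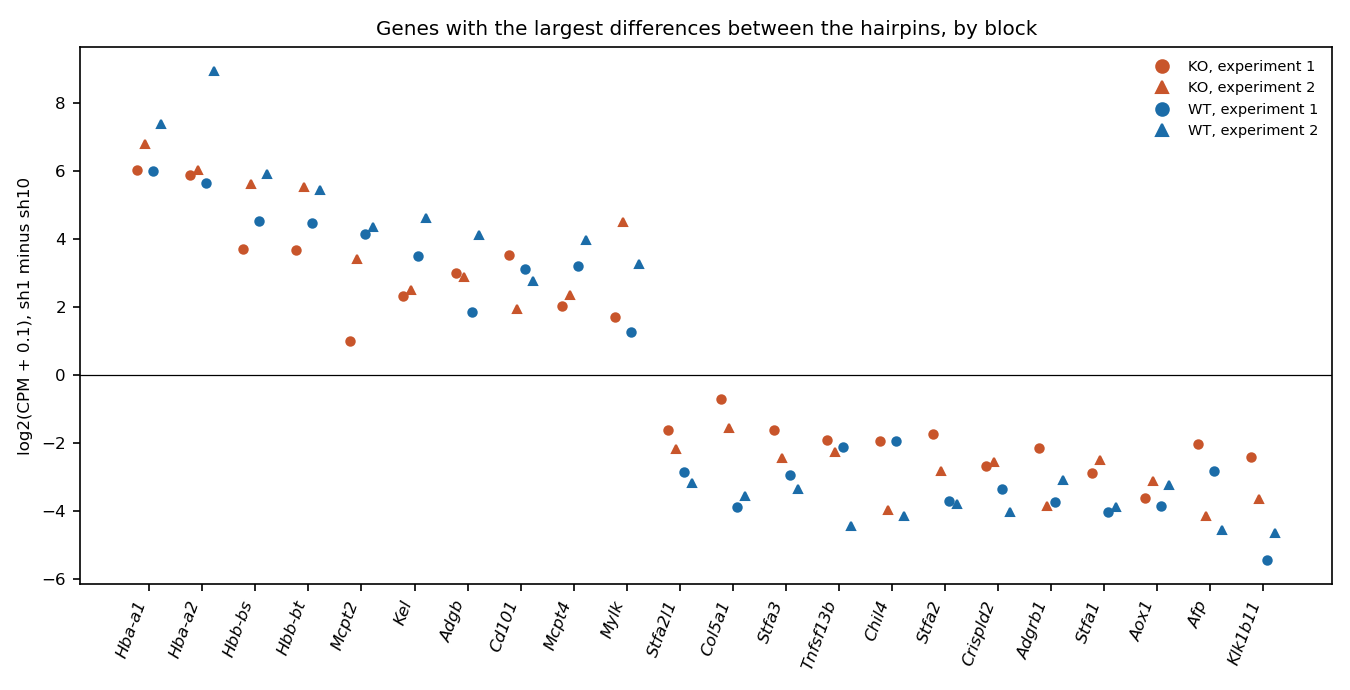
Difference in log2(CPM + 0.1), sh1 minus sh10 (y axis), within each block for 10 of the 12 genes with the largest higher values and the 12 with the largest lower values (x axis); colour gives the genotype and shape the experiment. All 4 blocks lie on one side of 0 for each gene, which the choice of genes required, and Hba-a1 (log2 fold change 6.97 in the fit) is the largest.

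Interferon-stimulated genes and RNA sensors were lower with sh1 than with sh10 in 15 of 29 and higher in none (median -0.49). The count of 15 was 5 without the experiment 1 library of WT sh1 or WT sh10 or the experiment 2 library of KO sh1 or KO sh10, and 8 without the experiment 2 library of WT sh1 or WT sh10. Against the control, none were called higher and 2 lower with sh1, and 15 higher and none lower with sh10. Eif2ak2, the double-stranded RNA-activated kinase PKR, was at 91, 102, 87 and 122 CPM with sh1, at 134, 139.9, 160.2 and 176 CPM with sh10 and at 119, 117, 119.6 and 144 CPM with the control, and the hairpins differed by -0.59 (SE 0.08, adjusted p = 0.00128). Oasl2 (-0.65), the RNA sensor Ifih1 (-0.50) and the chemokine Cxcl10 (-0.86) were called as well. Among 21 inflammatory cytokines and chemokines, 1 was called higher and 5 lower (median -0.37). Spp1, osteopontin, was at 155, 675, 156 and 844 CPM with sh1 and at 275, 3003, 495 and 2226 CPM with sh10. The groups overlapped across experiments, and within blocks sh1 was lower (log2 difference -1.55, SE 0.27, adjusted p = 0.00473). Il1b, the cytokine interleukin 1 beta, was the member called higher (log2 difference 1.03, SE 0.21, adjusted p = 0.00994).

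The genes with the smallest p-values between the hairpins lay largely outside these lists and are named after their values were seen. Ywhae, encoding 14-3-3 epsilon, which binds phosphorylated proteins, was at 89.1, 64.9, 103 and 72.2 CPM with sh1, at 272, 164, 263 and 178 CPM with sh10 and at 384, 269, 388 and 276 CPM with the control. Every sh1 library was below every sh10 library, and the difference was -1.38 (SE 0.07, adjusted p = 3.64e-05). Clec10a, a lectin of macrophages and dendritic cells, was at 23.8, 13, 17 and 12.4 CPM with sh1 and at 76.6, 49.8, 63.8 and 41.8 CPM with sh10 (log2 difference -1.80, SE 0.11, adjusted p = 7.16e-05). P2rx7, an ATP-gated channel, was at 40.2, 49.9, 37.9 and 61.7 CPM with sh1 and at 12.8, 14.8, 12.7 and 14 CPM with sh10 (log2 difference 1.79, SE 0.11, adjusted p = 7.36e-05). Prkcsh, the beta subunit of glucosidase II, was at 312, 325, 322 and 297 CPM with sh1 and at 165, 131, 146 and 110.0 CPM with sh10 (log2 difference 1.22, SE 0.08, adjusted p = 8.15e-05). Tex2 (1.86), Fam196b (1.39) and Gstp1, a glutathione transferase (0.98), were also among them. Whether any of these transcripts matches a hairpin was not tested, since the hairpin sequences are not used here.

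Most macrophage genes rose with both hairpins. Of 22 monocyte and macrophage genes, 16 were called higher than the control with sh1 and 18 with sh10, none lower with either (medians 0.76 and 0.93). Of all genes 8.36% were called higher with sh1 and 10.2% with sh10. Between the hairpins 2 of the 22 were called higher and 2 lower. C1qa, a chain of complement C1q made by macrophages, was at 12, 33.4, 6.58 and 34.4 CPM with sh1, at 6.16, 27.8, 2.88 and 11.5 CPM with sh10 and at 0.984, 3.44, 0.646 and 6.03 CPM with the control. Both hairpins exceeded the control in every block. Its values over the control were 3.22 with sh1 and 2.27 with sh10 on the log2 scale. The interval of the difference, 0.32 to 1.59, lay above 0 and reached beyond 1 unit, though the difference was not called. C1qc was called with both as well (3.19 with sh1, 2.37 with sh10), while C1qb, the remaining chain, differed between the hairpins by 0.82 (SE 0.22, adjusted p = 0.0341), a call lost in 6 of 12 fits that each left out 1 library. Heph, a copper-dependent ferroxidase (2.73 with sh1, 2.90 with sh10), Tgm2, transglutaminase 2 (2.38 and 2.25), and Pkib, an inhibitor of protein kinase A (2.82 and 2.75), were called with both and not between them. Bace2, a protease (2.51 and 3.32), Apoc2, an apolipoprotein (2.43 and 2.68), Dnah2, Acoxl and Catsperg1 complete the 10 largest shared higher genes. Of 14 dendritic cell and MHC class II genes, none were called higher and 2 lower between the hairpins (Itgax -0.81, H2-DMb1 -0.35), and 6 were called higher with sh1 and 7 with sh10 over the control. The calls of Itgax and H2-DMb1 were lost in 6 and 10 of the 12 fits.

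Most mitosis genes fell with both hairpins. Of 24 mitosis genes, 23 were called lower than the control with sh1 (7.36% of all genes were called lower) and 22 with sh10, none higher with either. Their medians were -0.61 with sh1 and -0.60 with sh10. Between the hairpins 1 was called higher, Nusap1 (log2 difference 0.34, SE 0.10, adjusted p = 0.0452), and none lower, with a median of -0.03. Of 23 E2F targets of DNA replication, 16 were called lower with sh1 and 16 with sh10 (medians -0.53 and -0.51). Between the hairpins Ccne1, cyclin E1, was called higher (0.77) and Pcna, the polymerase clamp, and E2f1 lower (-0.30 and -0.44). With 1 library left out at a time, the calls between the hairpins were lost in 11 of 12 fits for Nusap1, in 8 for Pcna and in 7 for E2f1. Angpt1, a ligand of the Tie2 receptor, was at 18.1, 18.1, 23.7 and 18.4 CPM with sh1, at 22.9, 14.5, 13.8 and 7.06 CPM with sh10 and at 61.3, 55.2, 61.6 and 76.4 CPM with the control. All hairpin libraries were below all controls. Spink2 (-2.61 with sh1, -2.51 with sh10), Ahr, the aryl hydrocarbon receptor (-1.72 and -2.01), Podxl, podocalyxin (-1.61 and -1.65), and Bcat1, a branched-chain aminotransferase (-3.66 and -1.81), were lower with both and not called between them. For Bcat1 the 2 values lie more than 1 log2 unit apart, so the missing call does not show an equal size. Serpina3h, Plscr2, Taf4b, Fgd1 and Vegfc complete the 10 largest shared lower genes.

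**Figure D4:**
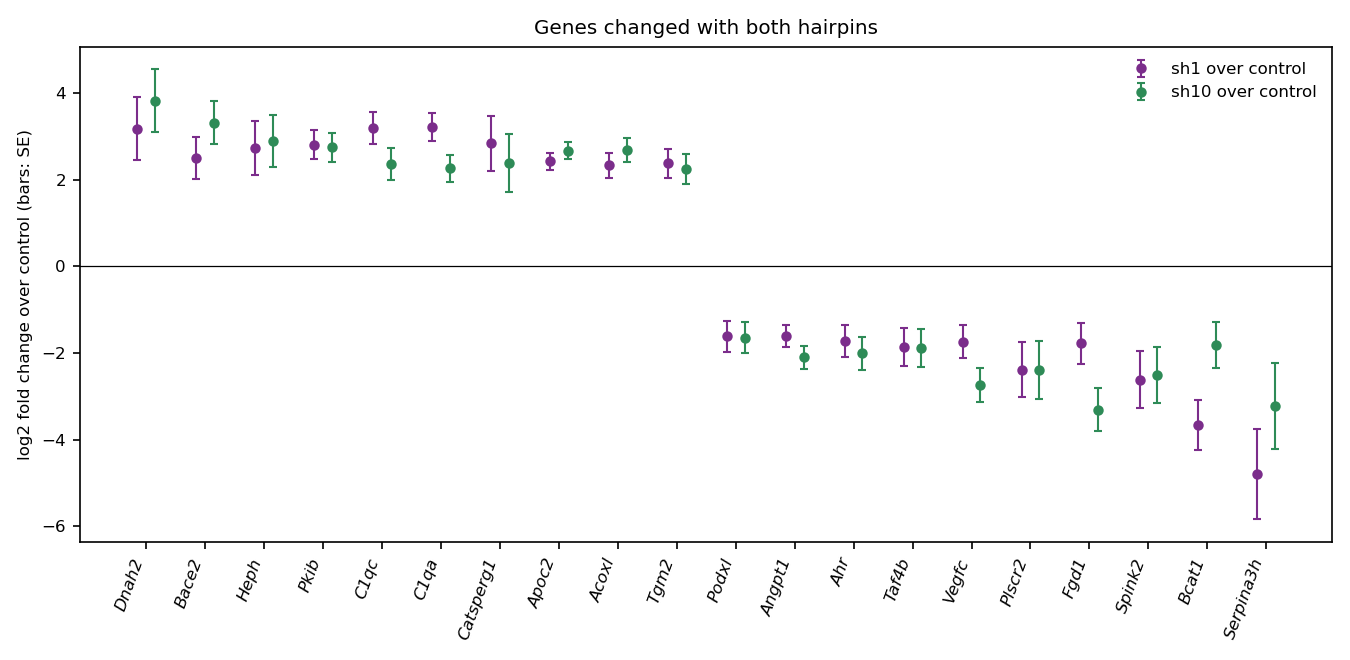
Log2 fold change over the control hairpin (y axis, bars are SE) for the 10 largest shared higher and the 10 largest shared lower genes (x axis), with sh1 in purple and sh10 in green. The rule chose genes called on the same side of 0 with both hairpins; Heph stands at 2.73 with sh1 and 2.90 with sh10.

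Some stem cell genes fell with both hairpins, and a few were higher with sh1 than with sh10. Of 27, 4 were called higher with sh1 than with sh10 and none lower (median 0.29), while 7 were called lower than the control with sh1 and 9 with sh10. Gata2, a transcription factor of stem and mast cells, was at 301, 457, 322 and 438 CPM with sh1, at 256, 273, 159.6 and 214 CPM with sh10 and at 328, 508, 298 and 537 CPM with the control. Only sh10 was called against the control (-0.77), and the hairpins differed by 0.76 (SE 0.13, adjusted p = 0.00508). Myb, a transcription factor of progenitors, had the same placement (log2 difference 0.65, SE 0.13, adjusted p = 0.00967). Cd34, a progenitor surface protein, was lower than the control with both (-1.24 with sh1, -1.79 with sh10) and differed between them by 0.56 (SE 0.12, adjusted p = 0.0117). Of 16 genes of primary granules and granulocyte-monocyte progenitors, 1 was called higher and 4 lower (median -0.14), among them Ms4a3 (-0.98) and Ly6c2 (-0.90). Among 25 cytokine receptors and signalling genes, 2 were called higher (Epor and Csf2rb2, 0.76) and 3 lower (Csf3r, the G-CSF receptor, -0.56, Il6ra -0.61 and Csf2ra -0.50). With 1 library left out at a time, the calls of Ly6c2, Il6ra and Csf2ra were lost in 7, 5 and 6 of 12 fits.

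A few genes of splicing and of RNA interference were called, in both directions. Over all genes tested 6.15% were called higher with sh1 and 5.45% lower. The counts below are not read as a result about these lists. Of 14 minor spliceosome proteins, none were called higher and 2 lower with sh1: Zcrb1 of the U11/U12 particle (log2 difference -0.45, SE 0.10, adjusted p = 0.0135) and the helicase Dhx15 (log2 difference -0.35, SE 0.08, adjusted p = 0.0136). Dhx15 was no longer called without the experiment 1 library of KO sh1 or WT sh1. The list's median was -0.16. No member of the U2AF and ZRSR genes was called among 6 (2 at an unadjusted p under 0.05, 2 called by DESeq2), with a median of 0.06. Of 21 SR proteins and CLK kinases, 2 were called higher (Srpk1 0.68, Tra2b 0.64) and 2 lower (Tra2a -0.57, Srpk2 -0.62). None of 16 nonsense-mediated decay genes was called (2 at an unadjusted p under 0.05, none by DESeq2). Of 16 genes of RNA interference and microRNAs, 3 were called higher and 1 lower. Ago1, an Argonaute protein, was at 32.6, 23.8, 26.4 and 20.4 CPM with sh1, at 18.8, 15.3, 18 and 12 CPM with sh10 and at 31.5, 21.4, 34.7 and 27 CPM with the control, a difference of 0.70 (SE 0.13, adjusted p = 0.00637). Drosha, the nuclear microRNA-processing enzyme (0.38), and Tnrc6a (0.33) were the others called higher, and Tnrc6b (-0.44) was lower. Tnrc6a and Tnrc6b encode partners of the Argonautes, and the call of Tnrc6a was lost in 8 of 12 fits that each left out 1 library.

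Small counts between the hairpins moved with single libraries. As 1 library was left out, the count called higher ran from 0 to 6 for macrophage genes, from 2 to 6 for oxidative phosphorylation, from 3 to 6 for stress response genes and from 2 to 4 for cytokine receptors. The count called lower ran from 1 to 4 for stress response genes, from 1 to 4 for fibroblast and endothelial genes, from 2 to 5 for primary granule genes, from 3 to 6 for inflammatory genes, from 1 to 3 for cytokine receptors and from 1 to 2 for the minor spliceosome. Oxidative phosphorylation was at 2 without the experiment 1 library of KO sh1 or WT sh10, and stress response genes called higher were at 3 without that of WT sh10. Of 31 gene identifiers of oxidative phosphorylation, 5 were called higher and none lower (median 0.08), led by Cox4i1 (0.42). Of 24 identifiers of genes induced by unfolded proteins or the integrated stress response, 6 were called higher and 4 lower (median 0.01): Sdf2l1 (0.60), of the endoplasmic reticulum, was higher and Nupr1 (-0.78), a stress-induced regulator, lower. Of 10 heat shock genes, the mitochondrial chaperonins Hspe1 (0.67) and Hspd1 (-0.46) were called in opposite directions. They overlap at their starts on opposite strands of chromosome 1, while the values count reads spliced across introns matched to each gene by position and strand. Any effect of the overlap was not tested. The call of Hspd1 was lost in 4 of 12 fits that each left out 1 library. Of 14 fibroblast and endothelial genes, 2 were called higher, Pdgfrb (1.87) and Thy1 (1.28), and 4 lower, among them Fn1, fibronectin (log2 difference -1.27, SE 0.21, adjusted p = 0.00421). Thy1 was also the 1 called gene of 17 in the list of B, T and NK cell genes.

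Single introns were tested apart from the genes, and the call counts of these tests are not set against each other. Of 46630 introns tested for the ratio of exon-intron to spliced reads (edgeR's diffSpliceDGE, Benjamini-Hochberg adjustment), 1 was called between sh1 and sh10, which is 0.00214%, and 2287 had an unadjusted p under 0.05. It was intron 6 of 14 of Csf2rb (chr15:78340849-78341337, plus strand, 489 bases), the gene of the common beta chain of the IL-3, IL-5 and GM-CSF receptors. Its retention, the share of reads at the intron's ends that were unspliced, was 18.5, 6.69, 12.2 and 7.06% with sh1, 5.91, 1.66, 7.26 and 3.42% with sh10 and 7.65, 2.75, 7.92 and 4.29% with the control. In every block sh1 was above both others. The difference was 1.46 (SE 0.45, adjusted p = 0.00405) in log2 ratio, and the call was lost when any of the 4 KO hairpin libraries was left out. Of 14 introns of Csf2rb tested, 12 were higher with sh1, and 10 had an unadjusted p under 0.05, all higher (median 0.97). Spliced reads of Csf2rb did not differ to a call (log2 difference 0.10, SE 0.11, adjusted p = 0.647). Csf2rb2, a near-identical neighbour whose spliced reads were higher with sh1 (0.76), had 13 of 13 introns higher and 6 at an unadjusted p under 0.05, and how reads were split between the copies is uncertain. Against the control no intron was called with sh1 (2202 at an unadjusted p under 0.05, none by limma) and 1 with sh10, in Actb, lost without any 1 of the sh10 libraries or of the controls other than WT experiment 2. The mean of both hairpins over the control gave 6 called introns (0.0129% of introns, with 0.0107% lower): 1 higher, in Ccdc12 (1.12), and 5 lower, in Itgb2 (-1.59), Actb (-0.87) and 3 introns of Ly6e. Introns 1 and 2 of Ly6e share their 3′ end. Spliced reads of the Itgb2 and Ly6e introns were above the control in every block with both hairpins. In WT experiment 1, Ly6e intron 1 had 385 exon-intron and 12121 spliced reads with sh1, beside 353 and 6280 with the control. For Itgb2 these were 103 and 1499 beside 70 and 449. No intron was called for the mean over the control without any 1 of the 4 control libraries. The count was 1 without the KO sh10 library of experiment 1, 2 without the KO sh1 library of experiment 2 and 3 without the WT sh1 library of experiment 1.

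U12-type introns, the class ZRSR2 acts on, are shown by their ends for the genes described next. Each line gives the first 8 bases and then the last 30, from GENCODE M21 transcripts (GRCm38), with capitals for the bases compared with the U12 5′ site and for the branch point motif (TTCCTTAA with at most 2 mismatches). The ends lie at chr19:5959025-5959032 and chr19:5958876-5958905 for Pola2 (minus strand), chr17:12919926-12919933 and chr17:12920246-12920275 for Tcp1 (plus), chr17:24478312-24478319 and chr17:24478163-24478192 for Mlst8 (minus), chr10:80036907-80036914 and chr10:80036843-80036872 for Polr2e (minus), and chr8:119345003-119345010 and chr8:119345583-119345612 for Hsbp1 (plus).
Pola2 first 8: GTATCCTT
Pola2 last 30: gtagttgctCTCCTTGAccagtgttttcag
Tcp1 first 8: GTATCCTT
Tcp1 last 30: tgtttcagctATCCTTAActgttgtctcag
Mlst8 first 8: GTATCCTC
Mlst8 last 30: ttctcttcctgttATCCTTAAcatgctcag
Polr2e first 8: GTATCCTT
Polr2e last 30: gcccgccagctgcTTCCTTGActgttctag
Hsbp1 first 8: ATATCCTT
Hsbp1 last 30: gctgccgtgcgggCTCTTTAActgtgccac

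Ends were read from transcript sequences, so they were known only where exons of other transcripts cover them. This held for 10301 of 219945 introns, of which 64 were U12-type and 56 of those were tested. The U12-type and other classed introns below are limited to this part, and U12-type introns outside it were not classed. None of these 56 was called between the hairpins (none by limma). An unadjusted p under 0.05 was reached by 7 of the 56, beside 402 of 6360 other classed introns and 2287 of 46630 introns tested. Of the U12-type introns 22 were higher and 34 lower with sh1 than with sh10. Their median log2 ratio was -0.13, beside 0.11 for the other classed introns and 0.04 for all introns tested. By block the shift of U12-type against other introns was -0.61 and -0.23 in KO and 0.20 and -0.28 in WT experiments 1 and 2, so the blocks did not share a direction. The shift over all blocks, -0.24, was 0.07 without the KO sh10 library of experiment 1 and 0.01 without the WT sh1 library of experiment 2. Mean retention of the 56 was 19.1, 15.2, 11.2 and 7.95% with sh1, 21.8, 16.2, 10.7 and 9.61% with sh10 and 14.0, 11.6, 10.4 and 9.62% with the control. In KO blocks both hairpin libraries were above the control, and in WT blocks there was no common order. Over the control the median was 0.21 with sh1 and 0.21 with sh10, beside 0.12 and 0.01 for the other classed introns.

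Pola2 encodes a subunit of the polymerase that primes DNA replication. Its intron was retained at 49.2, 27.5, 5.12 and 1.99% with sh1, 59.3, 67.7, 5.42 and 3.97% with sh10 and 39.6, 9.39, 4.28 and 0.437% with the control. KO libraries were far above WT libraries with either hairpin, and within each block sh10 was higher, a difference of -1.03 (SE 0.67, adjusted p = 0.976). Mlst8, of the mTOR complexes, was at 21.2, 18.4, 11.4 and 0% with sh1 and 35.2, 53.4, 8.94 and 41.6% with sh10 (log2 difference -2.54, SE 1.25, adjusted p = 0.976). Its WT values with sh10 were far from each other. Tcp1, a chaperonin subunit, was at 7.29, 4.55, 2.24 and 2.56% with sh1 and 12.2, 10.8, 3.14 and 4.39% with sh10 (log2 difference -0.86, SE 0.48, adjusted p = 0.976), and sh10 was higher in every block. Polr2e, an RNA polymerase subunit, was at 9.77, 8.52, 4.6 and 7.85% with sh1 and 19.8, 30, 4.78 and 7.54% with sh10 (log2 difference -0.85, SE 0.62, adjusted p = 0.976), apart in KO blocks and close in WT blocks. Hsbp1, a regulator of the heat shock factor, went the other way in 3 of 4 blocks, at 9.73, 1.1, 3.49 and 3.7% with sh1 and 3.38, 1.55, 1.3 and 1.03% with sh10 (log2 difference 1.11, SE 0.60, adjusted p = 0.976). None of these passed the adjusted threshold.

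**Figure D5:**
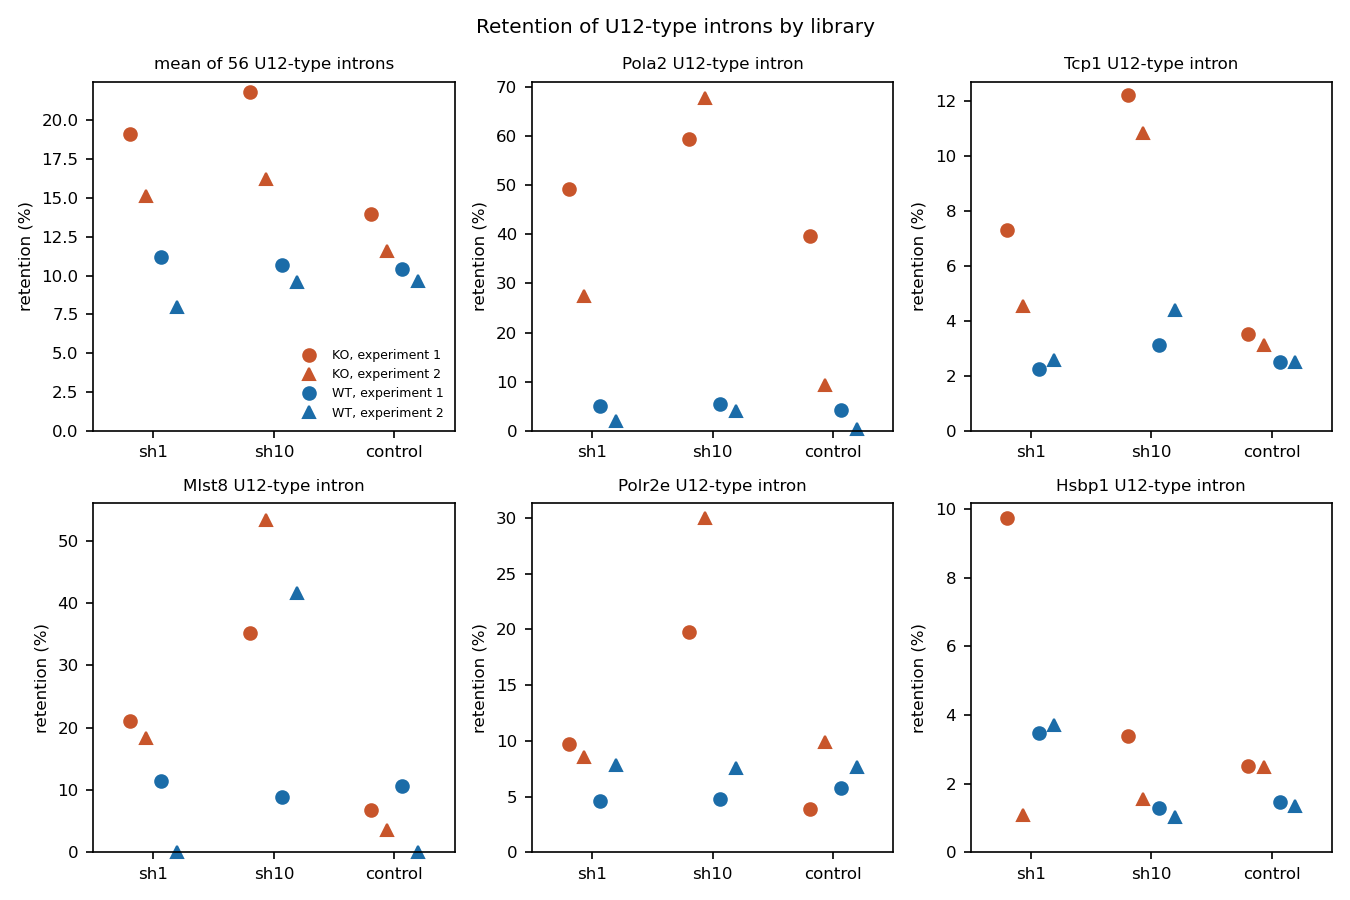
Retention in percent (y axis, linear from 0) by hairpin (x axis) for the mean of 56 U12-type introns and for 5 single introns; colour gives the genotype and shape the experiment. The KO points with sh1 and sh10 (15.2 to 21.8% for the mean) are above the KO controls (14.0 and 11.6%) within each experiment.

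Over all introns, exon-intron reads made up 2.10 ± 0.494% of reads at intron ends with sh1 and 1.99 ± 0.425% with sh10 (SD, n = 4 each; exact permutation test, two-sided, p = 0.743, where 0.0286 is the smallest possible). The permutation test compared libraries across experiments. Within blocks, sh1 minus sh10 was 0.54 and 0.07 percentage points in KO and -0.24 and 0.07 in WT. An exact test by sign changes within the blocks gave p = 0.625, where 0.125 is the smallest possible. The difference of 0.110 points was -0.101 without the KO sh1 library of experiment 1 and -0.0291 without the KO sh10 library of experiment 2.

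The hairpins were also compared within each genotype. In KO cells 333 genes were called between sh1 and sh10 (1.87%, with 1.17% higher) and in WT cells 1090 (6.11%, with 3.56% higher), each from 2 libraries a hairpin. The test of the difference between genotypes called 2 genes (0.0112%), Ifi202b (5.45, adjusted p = 0.00932) and its neighbour Gm18445 (5.43), both from the low WT sh1 libraries described above, and 955 genes had an unadjusted p under 0.05. The count was 18 without the KO sh10 library of experiment 1, 4 without the WT sh10 library of experiment 2 and 0 without either WT sh1 library or the KO sh1 library of experiment 2. No intron was called for that difference (2436 at an unadjusted p under 0.05, none by limma). Within KO the Csf2rb intron was called (0.00214%), and within WT 2 introns (0.00429%), both with a higher ratio with sh1, in AI662270 and in Actg1 (1.68). AI662270 is the locus described above where the WT sh10 libraries alone were high. In WT experiments 1 and 2 its intron had 106 and 130 exon-intron reads with sh1 and 87 and 119 with sh10. Its spliced reads were 117 and 146 with sh1 and 2565 and 1288 with sh10.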

How the data were processed

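Deposited tables of the authors list, for each intron, the counts of reads crossing each exon-intron boundary and the count of spliced reads. The deposited tables also hold a covered fraction per intron, used only to describe libraries, and an MSI column in percent (the deposited percent values were not used). Coordinates are mm10, per the submitters' processing notes. Neither the aligner nor the counter is given in the sources used here. The 24 libraries of other cells were not used.

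Introns were joined to GENCODE M21 (219945 of 219945 matched, in 31890 genes, 1887 introns in more than 1 gene). Spliced counts were summed per gene, so a read spanning several introns is counted at each. Genes that passed filterByExpr were tested with edgeR 4.0.16 (TMM, quasi-likelihood, R 4.3.3) over the 12 Lin-Kit+ libraries with 4 block terms, sh1 and sh10. The test of the genotypes used groups plus experiment. Introns were tested with diffSpliceDGE, the unspliced reads of both ends against spliced reads, with effect sizes as log2 ratios with 0.5 added and SE from limma 3.58.1. Adjusted p-values are Benjamini-Hochberg over all features, threshold 0.05. CPM are spliced counts scaled to 1000000 per library. Retention is the share of exon-intron reads in their sum with 2 times the spliced reads. U12-type introns matched ATATCCTT or GTATCCTT with at most 1 mismatch, ended in AG or AC and held the branch point motif in their last 40 bases. No pair of libraries was identical.

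The labels give experiments 1 and 2 for every group, and deviations of same-numbered libraries correlated at 0.685 to 0.782 over 9943 genes in all 15 pairs of groups, so experiment was kept as a block. A difference was placed with 1 hairpin when the change with that hairpin against the control was called in the direction of the difference and the change with the other was not called. Named genes are up to 12 per direction with the largest called differences of one direction in 4 blocks at 5 CPM or more, up to 10 shared genes per direction, and up to 4 members per list with the smallest p, beside genes said to be named after their values were seen. Some of these genes are not reported here. The members and the 28 lists were chosen with earlier results of these data known. The 28 lists are those described in the text. The tests were run on simulated data first. At changes of 0.5, 1 and 2 log2 units, 8.96%, 29.9% and 63.6% of the changed genes were called. Of the simulated gene calls 8.11% were false. For introns, simulated at a set spread, 16.9%, 81.0% and 98.3% were called at 1, 2 and 3 units. Of those calls 10.9% were false. The intron run held 4708 introns, no block differences and a spread not taken from these data. Its shares need not hold for the 46630 introns tested. A gene or intron that was not called may therefore still differ. Alternatives were DESeq2 1.42.0, RLE factors, no filter, the median intron count per gene, groups plus experiment, no block, the 8 hairpin libraries alone, each experiment alone (chosen after seeing the data) and each library left out, and for introns also limma, the lower of the 2 ends and at least 20 reads.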

Additional observations from a re-analysis of the deposited data

Results flagged for a closer look

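Of 246 groups of 4 libraries tested, mostly of named genes, 5 had 1 library far from the others of its group, where chance gives about 1 in 20 groups. All were the highest of the 4 sh1 libraries: Hba-a1 at 90.6 CPM in KO experiment 1, against 41.9 to 46.4 CPM in the other three, Chil4 at 183 CPM in WT experiment 1 against 19.5 to 45.4 CPM, Crispld2 at 8.64 CPM in KO experiment 2 against 4.29 to 4.91 CPM, Angpt1 at 23.7 CPM in WT experiment 1 against 18.1 to 18.4 CPM, and Spink2 at 3.04 CPM in WT experiment 2 against 0.526 to 0.673 CPM. The calls of these genes were kept without any single library.

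The difference between the hairpins differed by genotype for Ifi202b (5.45 on the log2 scale, KO minus WT) and Gm18445 (5.43), whose counts were low in both WT sh1 libraries. The cause was not tested.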

How the results depend on the processing

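None of the 113 named genes with a call reversed under the alternatives run for them. With 1 library left out at a time, 98 of the 113 kept their call in all 12 fits. Without the replicate block 86 of the 113 lost it, with experiment 1 alone 43 did, with experiment 2 alone 47, with the median intron count 9, with the 8 hairpin libraries alone 13 and with DESeq2 1 (Ly6c2). Of the gene lists, 2 ribosomal, 4 erythroid, 2 cholesterol, 1 mast cell, 1 megakaryocyte, 1 glycolysis, 2 fibroblast or endothelial and 1 neutrophil gene were still called without the block. Csf2rb, which was not called, reversed to -0.0354 without the WT sh10 library of experiment 2 (up to 0.214 with another library left out) and to -0.0713 in experiment 1 alone.

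Genes called between sh1 and sh10 numbered 3184 with DESeq2, 133 without the replicate block, 1258 with the 8 libraries alone, 628 in experiment 1 and 365 in experiment 2. The fit without the block gave 152 for the mean of both hairpins over the control, 102 for sh1 and 201 for sh10 over the control. Experiment 1 alone gave 1896, 1556 and 1708, and experiment 2 alone 1017, 404 and 1261. For the difference between genotypes DESeq2 called 74 genes, no filter 4, the median intron count 5 and the fit without the block 0. Introns called between the hairpins were 4 with the lower end, 2 with at least 20 reads, and 0 without the block, with limma or with the 8 libraries alone. The mean over the control gave 0 without the block and with limma. Over the control, sh1 gave 8 introns with the lower end and 10 with at least 20 reads, and sh10 gave 4 and 6, and 0 without the block or with limma. The U12-type shift was -0.58 with the lower end.

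With 1 library left out, the gene counts ran from 1271 to 2026 between the hairpins, 2371 to 3446 for the mean, 1938 to 3047 for sh1, 2657 to 3576 for sh10 and 0 to 18 for the genotypes. Introns ran from 0 to 1, 0 to 6, 0 to 0, 0 to 1 and 0 to 3. The U12-type shift ran from -0.43 to 0.07, Zrsr2 from -1.25 to -0.24 and the exon-intron share from -0.101 to 0.275 points, reversed to -0.101 and -0.0291 in 2 of them. The cause was not tested. Genes below the filter and introns with few unspliced reads are beyond this depth.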
